A study of Mus musculus with 8 samples.

Results

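The genes described here encode the proteins of the cytosolic ribosome. They were chosen by name, as every gene on the array whose symbol starts with Rpl or Rps and a number, or is Rplp0, Rplp1, Rplp2 or Rpsa, without the S6 kinases (Rps6k) and without pseudogenes. The rule took in 76 of the 15946 genes on the array, of which 48 carried large-subunit names, 27 carried small-subunit names, and 1, Rps19bp1, encodes a protein that binds Rps19 and is not part of the ribosome. Of the 76, 72 (46 large, 25 small and Rps19bp1) passed the filter on dim probes and entered the tests, among 8793 genes tested in all. The 4 that did not pass were Rpsa, Rps19, Rplp2 and Rpl39l, whose probes read 104 to 148 on every array.

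RNA was measured in thioglycollate-elicited peritoneal macrophages of C57BL/6 mice, cells that enter the peritoneal cavity after an irritant is injected and are then cultured by adherence. The siRNA given was scrambled (siCtrl), directed at the histone H3 lysine methyltransferase MLL (siMLL), or directed at the ETS-family transcription factor GABP (siGABP). Cells with each siRNA were left untreated or exposed for 6 h to Kdo2 (Kdo2 lipid A, KLA), which activates the receptor TLR4. The 8 arrays gave 3 measurements of siMLL untreated cells and 1 each of siCtrl untreated, siGABP untreated, siCtrl KLA, siMLL KLA and siGABP KLA. The labels do not say whether the 3 numbered siMLL arrays came from separate animals or cultures. Every p-value therefore measures only spread among the 8 arrays, which may be technical, and their number limits the precision.

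The cytosolic ribosome joins a small subunit, which reads the mRNA, to a large subunit, which forms the peptide bond. Its proteins are needed in matched amounts, are made from many unlinked genes, and are among the most abundant mRNAs of most cells. In mammals the mRNAs begin with an oligopyrimidine tract, through which mTOR signalling controls their translation, so an mRNA level is only one step towards the amount of ribosome. Treatment of macrophages with a TLR4 agonist is known to redirect both transcription and translation.

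The targets of the siRNAs were checked first. Gabpa, the DNA-binding subunit of GABP, was lower by 1.02 ± 0.09 (SE) on the log2 scale on the siGABP arrays (limma, adjusted p = 0.00021), while Gabpb1, its partner, was higher by 0.97 ± 0.08 (adjusted p = 0.00016). Kmt2b, which has carried the MLL name in some annotations, differed by -0.07 ± 0.09 on the siMLL arrays (adjusted p = 0.71), and Kmt2a was not analysed here, so the siMLL label has no check in these values. The macrophage genes Lyz2 and Adgre1 had mean intensities of 30921 and 3079, whereas Cd163 and Msr1 (111 and 115) were near the array's floor. Genes of B cells (Cd79a, Pax5), T cells (Cd3e), mast cells (Cpa3) and eosinophils (Epx) lay between 109 and 138. Some others on the same lists read higher, among them Cd3d (149), Prg2 (156) and Cd22 (238). The neutrophil gene S100a8 (848) and the fibroblast genes Dcn (2685) and Pdgfra (703) were well above the floor. S100a9 (132) and the mesothelial gene Krt19 (91) were not. Fewer cells of one type and less RNA per cell cannot be told apart in such bulk samples.

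Because 1 siRNA was directed at GABP, the promoters of the ribosomal protein genes were read for its core element. ETS factors bind around GGAA. The word searched, on both strands, was CCGGAAG, which reads CTTCCGG on the other strand. The shorter word CGGAAG, also searched on both strands, is contained in it. RefSeq promoters of mouse build GRCm38.p6, from 250 bases before to 50 bases after the first listed start, were held for 62 of the 76 genes, 10 of which had several listed starts. CCGGAAG occurred in 25 of the 62 (40.3%), against 18.2% of the 7211 tested genes with a promoter and 9.12% of all 27025 promoters. CGGAAG occurred in 44 of the 62 (71.0%), against 31.2% and 17.2%. The word TATAAA, on either strand, occurred in 6 of the 62 (9.68%), against 8.57% of tested genes. A match describes the letters and is not a bound site. 5 promoters that hold the longer word are shown, from 44 bases before the start to 16 bases into the first exon, in the direction of transcription, with the match in capitals. They belong to the 3 genes with this word that were called on the siGABP arrays (Rpl31, Rps3a1 and Rps27l) and to 2 that were not (Rps7 and Rpl38).
Rpl31: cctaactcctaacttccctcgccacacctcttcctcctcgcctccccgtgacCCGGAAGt
Rps3a1: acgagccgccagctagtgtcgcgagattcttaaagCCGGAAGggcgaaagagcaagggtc
Rps27l: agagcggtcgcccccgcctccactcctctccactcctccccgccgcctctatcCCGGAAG
Rps7: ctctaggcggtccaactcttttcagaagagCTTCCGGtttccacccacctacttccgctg
Rpl38: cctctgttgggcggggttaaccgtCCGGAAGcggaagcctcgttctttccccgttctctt
The stretch of Rpl31 lies at chr1:39367807-39367866 on the plus strand, that of Rps3a1 at chr3:86142653-86142712 on the minus strand, and that of Rps27l at chr9:66946042-66946101 on the plus strand. Those of Rps7 and Rpl38 lie at chr12:28635938-28635997 (minus) and chr11:114668536-114668595 (plus). The word sits within 20 bases of the start in all 5, after it in Rpl31 and Rps27l and before it in the other 3. The stretch shown had to hold the word, so this nearness does not describe the other promoters with it.

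After KLA the ribosomal protein mRNAs were lower as a group, by a small and even amount. With siRNA and KLA as additive terms over the 8 arrays, 48 of the 72 tested (66.7%) fell, against 36.8% of all genes tested, and 2 rose, against 20% (limma, adjusted p under 0.05 over all 8793 genes). The members' median log2 difference was -0.21, with quartiles at -0.26 and -0.13, and that of all genes was -0.04. The fall was seen in both subunits, with 29 of 46 large-subunit genes (median -0.19) and 19 of 25 small-subunit genes (median -0.23) lower. In 40 of the 72 (55.6%) all 3 KLA arrays lay below all 5 untreated arrays, an order found in 29.8% of all genes. In 57 (79.2%, against 43.1% of all genes) the KLA array lay below the untreated level with each of the 3 siRNAs.

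These counts have to be read beside the brightness of the probes. Of the 60 tested members with a mean intensity over 1000, 46 (76.7%) fell, none rose, and the median was -0.23. All 1667 tested genes over that intensity, members included, also had a median of -0.23, and 56.9% of them fell and 24.2% rose. Thus the bright members sat at the median of bright genes and differed from them in spread, since their quartiles were -0.27 and -0.17 and those of all bright genes -0.47 and 0.15. Over an intensity of 10000 there were 101 tested genes, of which 37 were members. Of these 37, 27 (73%) fell and none rose, beside 65.3% and 13.9% of the 101. Their median was -0.22 with quartiles at -0.26 and -0.15, and that of the 101 was -0.22 with quartiles at -0.31 and -0.08. At this brightness the spreads were closer than over 1000. The 37 members make up a large part of the 101, which by itself draws the values together, so this closeness has no separate meaning. Of the 12 dimmer members, 2 fell (16.7%, Rpl22 and Rpl3l) and 2 rose (16.7%), beside 32.1% and 19% of all 7126 dimmer genes. Their median was 0.01, beside -0.02 for all dimmer genes.

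**Figure D1:**
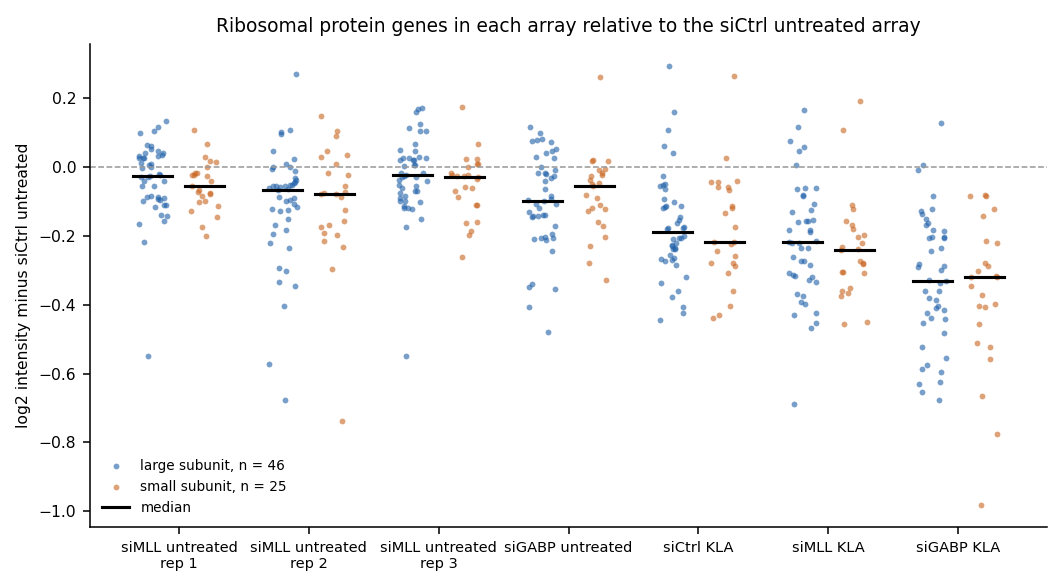
Each point is 1 ribosomal protein gene, plotted as its log2 intensity in an array minus that in the siCtrl untreated array (vertical axis), for the other 7 arrays (horizontal axis), with large-subunit genes in blue, small-subunit genes in orange and medians as black bars. The medians of the untreated arrays lie between -0.10 and -0.02 and those of the 3 KLA arrays between -0.33 and -0.19.

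Array by array, the median member stood 0.03, 0.07 and 0.03 below the siCtrl untreated array in siMLL untreated replicates 1, 2 and 3 (medians -0.028, -0.074 and -0.026), and the SD of these 3 medians was 0.027. In the siCtrl KLA array the median was -0.19 and in the siMLL KLA array -0.23. The siGABP untreated array was at -0.09 and the siGABP KLA array at -0.32, which was the lowest. The 3 KLA arrays thus all lay further from the siCtrl untreated array than any untreated array did. For all genes the medians of the KLA arrays were -0.06, -0.05 and -0.06. The siGABP KLA array gave the lowest value of the 8 in 43 of the 72 members (59.7%), against 22% of all genes. The marker lists gave the following sums. The summed intensity of 8 of 8 listed mast cell and eosinophil genes was 991 to 1018 untreated and 1006 to 1027 after KLA, that of 8 of 10 T and NK cell genes was 1003 to 1044 and 1009.8 to 1076, and that of 5 of 8 B cell genes was 731 to 790.4 and 675 to 736. That of 9 of 11 macrophage genes was 37577 to 41149 and 32422 to 41183, and that of 9 of 10 neutrophil genes was 1906 to 2186 and 2055 to 2146. The mesothelial and fibroblast sums stand beside the siGABP results. Of the 24 genes on the 6 lists that passed the filter, 2 were higher and 4 lower after KLA. Among macrophage genes Cd14 was higher by 2.06 ± 0.08 and Adgre1 by 0.35 ± 0.10, while Lyz2 fell by 0.31 ± 0.09 and Itgam by 0.15 ± 0.06. The B cell gene Cd22 fell by 0.32 ± 0.06 and the fibroblast gene Pdgfra by 0.74 ± 0.06 (limma, adjusted p from 1.9e-09 to 0.039). The part of these lists in the result was not tested.

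**Figure D2:**
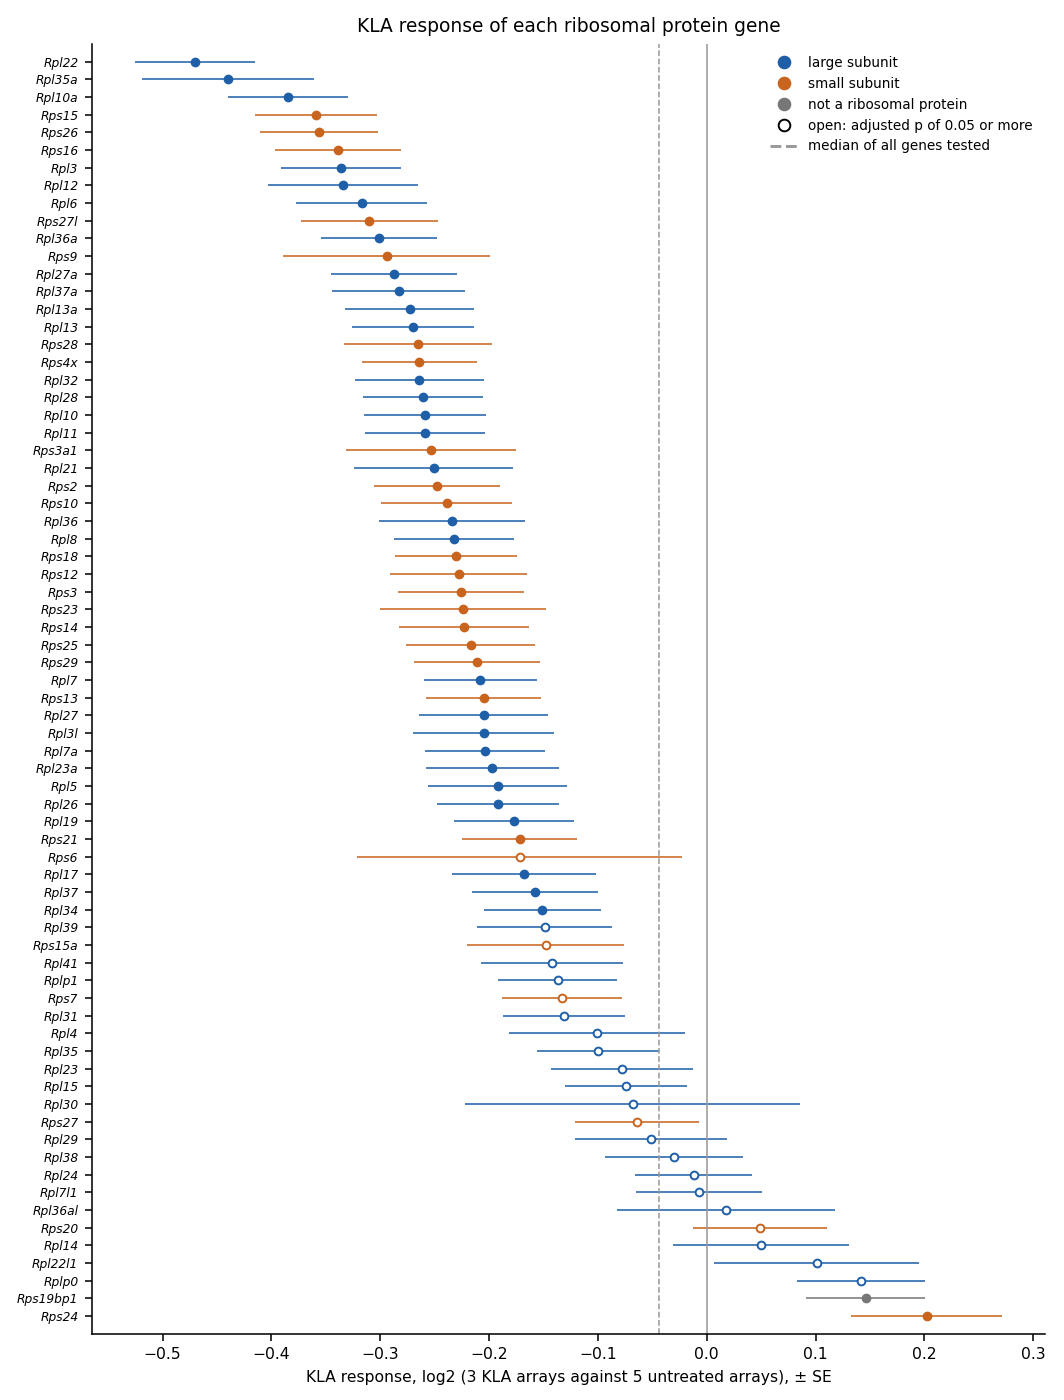
The KLA response of each of the 72 tested genes (points, with SE as bars) as log2 of the 3 KLA arrays against the 5 untreated arrays in the additive fit. Filled points passed the test, open points did not, and the dashed line marks the median of all genes tested at -0.04. The genes run from Rpl22 at -0.47 to Rps24 at 0.20.

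The largest fall was that of Rpl22, a large-subunit protein needed in mice for the development of a class of T cells. Its probe read 681, 709 and 661 in the 3 siMLL untreated arrays (mean 684 ± 23.9 SD, n = 3), 660.1 in siCtrl untreated and 601 in siGABP untreated cells, and 494, 501 and 438 in siCtrl, siMLL and siGABP cells after KLA. Every KLA array was below every untreated one, and the difference was -0.47 ± 0.06 (SE), or 1.39-fold lower (limma, adjusted p = 1.6e-05). Its paralog Rpl22l1 read 209 to 254 in the untreated arrays and 297, 257 and 204 after KLA, so that the groups overlapped (0.10 ± 0.09, adjusted p = 0.39). Its siCtrl and siMLL arrays were higher after KLA and its siGABP array was lower.

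Rpl10a, which forms a mobile stalk of the large subunit next to the exit site of the tRNA, read 5864, 5735 and 5704 in siMLL, 5951 in siCtrl and 4712 in siGABP untreated cells. After KLA it read 4445.5, 4308 and 3869 in siCtrl, siMLL and siGABP cells. All 3 KLA arrays were lower (-0.38 ± 0.06, adjusted p = 9.0e-05). The siGABP array was also the lowest within each of the 2 KLA states.

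Rpl3, a protein close to the peptidyl transferase centre, read 13099.6 (siCtrl) to 14759.8 (siMLL replicate 3) in the untreated arrays and 10089, 11789.8 and 10737 after KLA, 1.26-fold lower (-0.34 ± 0.06, adjusted p = 0.00023). Rpl12, at the base of the stalk that recruits the GTPases of translation, read 4142 to 4738 untreated and 3931, 3727 and 2845 after KLA (-0.33 ± 0.07, adjusted p = 0.0014). In both genes the KLA arrays lay below all the untreated ones, and in Rpl12 the siGABP KLA array stood well below the other 2.

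On the small subunit, Rps15, a protein of the decoding region, read 5316, 5501 and 5112 in siMLL, 5806 in siCtrl and 5384 in siGABP untreated cells, and 4531, 4255 and 4049 in siCtrl, siMLL and siGABP cells after KLA. It was 1.28-fold lower, with no overlap (-0.36 ± 0.06, adjusted p = 0.00016). Rps16 read 12508 to 13506 untreated and 10030.3, 10493 and 10826 after KLA (-0.34 ± 0.06, adjusted p = 0.00031). Both fell with each siRNA, Rps15 by 0.32 to 0.41 and Rps16 by 0.28 to 0.43 on the log2 scale.

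A set of ribosomal proteins is known from inherited or acquired human anaemias that follow the loss of 1 gene copy. Of these, Rps26 read 13869, 13869 and 13753 in siMLL, 14086 in siCtrl and 14283 in siGABP untreated cells, and 10402, 11057 and 11427 in the siCtrl, siMLL and siGABP KLA arrays. It fell 1.28-fold with no overlap (-0.36 ± 0.05, adjusted p = 0.00014). Rpl35a read 7162 to 8002 untreated and 6625, 5460.3 and 5092 after KLA, 1.36-fold lower (-0.44 ± 0.08, adjusted p = 0.0005). The fall of Rpl35a was uneven, at -0.17 with siCtrl, -0.49 with siMLL and -0.63 with siGABP. Rps14 read 26101 to 28601 untreated and 24209.9 (siCtrl), 23431 and 20891 after KLA, also without overlap (-0.22 ± 0.06, adjusted p = 0.0074). Rps24 went the other way, with 314, 272 and 314 in siMLL, 301 in siCtrl and 254 in siGABP untreated cells, and 355, 339 and 276 after KLA. It was higher in the KLA array with each siRNA (0.20 ± 0.07, adjusted p = 0.026), but its untreated and KLA ranges overlapped. Without siCtrl untreated or siCtrl KLA the call was lost (adjusted p = 0.10), and without siMLL KLA it was lost as well (0.11). Rps19, the gene most often affected in these anaemias, had a probe that read 109 to 131 on the 8 arrays and was not tested.

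Of the stalk proteins, Rplp0 is the scaffold that holds Rplp1 and Rplp2. Rplp1 read 28601 to 30823 untreated and 27549.6 (siCtrl), 26534 and 27549.6 (siGABP) after KLA, below all the untreated arrays, although the difference missed the threshold (-0.14 ± 0.06, adjusted p = 0.054). The brightest probe of Rplp0 read 352 to 402 untreated and 446, 447 and 357 after KLA (0.14 ± 0.06, adjusted p = 0.059), and its second probe gave -0.05. Neither of these 2 genes was called after KLA, and Rplp2 was not tested. Rpl5 and Rpl11 enter the large subunit together with the 5S rRNA, and outside the ribosome bind the p53 regulator Mdm2. Rpl11 read 15235 to 17345 untreated and 14205, 13869 and 12889 after KLA, below all the untreated arrays (-0.26 ± 0.06, adjusted p = 0.0017). Rpl5 read 13628 to 15313 untreated and 13628, 12995 and 11995 after KLA (-0.19 ± 0.06, adjusted p = 0.024). Both fell, and in both the siGABP KLA array was the lowest.

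Several ribosomal proteins have roles in signalling. Rps6, the substrate of the S6 kinases, had a wide spread. It read 2394, 1564 and 2161 in the 3 siMLL untreated arrays (mean 2039.5 ± 428 SD, n = 3), 2584 in siCtrl and 2064 in siGABP untreated cells, and 2509, 2097 and 1324 after KLA. Its untreated and KLA ranges overlapped widely (-0.17 ± 0.15, adjusted p = 0.36). Rps3, reported in human cells to bind the NF-κB subunit p65, read 9839 to 11514 untreated and 9489, 8409.5 and 9253 after KLA (-0.23 ± 0.06, adjusted p = 0.0059), and its second probe gave -0.28. Rpl13a, which in human monocytic cells leaves the ribosome to silence inflammatory mRNAs, read 1431.5 to 1722.5 untreated and 1469.7 (siCtrl), 1317 and 1256 after KLA (-0.27 ± 0.06, adjusted p = 0.0018). Rpl13a fell with each siRNA, although its siCtrl KLA array was above its siGABP untreated array. Rpl10, which completes the large subunit late in its assembly, read 17345 to 18271 untreated and 14369, 15526 and 14283 after KLA, without overlap (-0.26 ± 0.06, adjusted p = 0.0019).

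**Figure D3:**
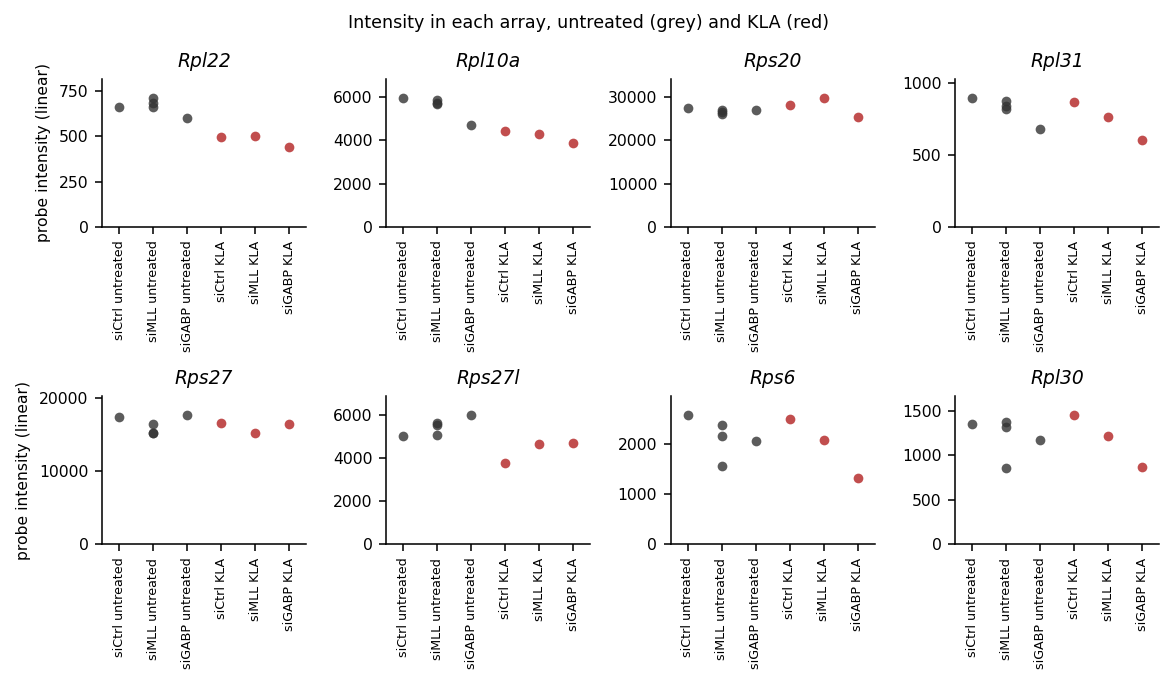
Probe intensity on a linear scale from 0 (vertical axis, its own range for each gene) in each of the 8 arrays, untreated in grey and KLA in red, for 8 ribosomal protein genes. Rpl22 and Rpl10a show no overlap between the 2 KLA states, Rpl31 is lowest in the 2 siGABP arrays, and Rps6 and Rpl30 have 1 siMLL untreated array far below the other 2.

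The genes nearest to no difference were Rpl7l1, Rpl24, Rpl36al and Rpl38. Rpl24 read 17795 to 19308 untreated and 17469.8 (siCtrl), 19308 and 17678 after KLA (-0.01 ± 0.05). Rpl38, known in mice for its part in the translation of Hox mRNAs, read 15131 to 17029 untreated and 14759.8, 16589.7 and 15794 after KLA (-0.03 ± 0.06). Their untreated and KLA ranges overlapped, and the sign of each of these 4 turned under at least 1 alternative. Rps20, a small-subunit protein, read 26101 to 27549.6 untreated and 28074, 29711 and 25301 after KLA (0.05 ± 0.06, adjusted p = 0.53), without a common direction across the 3 siRNAs.

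The rule also took in paralogs of ribosomal proteins, 5 of which were tested. Rps27l, a paralog of Rps27 that p53 induces in human cells, read 5058, 5531 and 5633 in siMLL, 4996 in siCtrl and 5979 in siGABP untreated cells, and 3783, 4628 and 4712 after KLA. It fell 1.24-fold with no overlap (-0.31 ± 0.06, adjusted p = 0.0012). Rps27 itself read 15235 to 17678 untreated and 16674 (siCtrl), 15235 and 16479 after KLA (-0.06 ± 0.06, adjusted p = 0.36), and its ranges overlapped. Whether the 2 genes differed in their response was not tested. Rpl3l, a paralog of Rpl3 found mainly in muscle, had a dim probe at 159 to 221 untreated and 175, 150 and 157.5 after KLA (-0.20 ± 0.06, adjusted p = 0.017). Rpl7l1 and Rpl36al gave -0.01 ± 0.06 and 0.02 ± 0.10. Rps19bp1, which is not a ribosomal protein, read 306 to 319 untreated and 336, 335 and 352 after KLA, and was the only 1 of the 72 with all 3 KLA arrays above all untreated ones, an order found in 17.5% of all genes (0.15 ± 0.06, adjusted p = 0.039). Its call was lost without any one of 7 of the 8 arrays. Without the paralogs and Rps19bp1, 46 of 66 genes fell, 1 rose and the median was -0.21.

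Other genes of translation did not move as evenly, as the plot of the translation lists shows. These lists were not matched to the ribosomal protein genes for brightness. Their brightest genes had mean intensities from 6130 to 13272. Of these, Eef1b2 (-0.26), Eef2 (-0.31), Eif3i (-0.30), Fau (-0.22) and Eif3f (-0.26) fell, Eef1g fell further (-0.52) and Pabpc1 did not fall (0.035). The members' median was -0.21. Whether the lists differed from members of like brightness was not tested. Several lists sat near the shares of all genes tested, of which 36.8% fell and 20% rose. Of 34 initiation factors, 14 fell (41.2%) and 7 rose (20.6%), with a median of -0.10. Eif4e, the cap-binding protein, rose 1.96-fold (0.97 ± 0.06, adjusted p = 1.0e-07) and Eif6, which keeps the large subunit from joining too early, rose by 0.74 ± 0.05 (adjusted p = 2.3e-07), while Eif1b fell by 0.63 ± 0.05 (adjusted p = 1.2e-06). Of 12 elongation and termination factors, 5 fell (41.7%) and 3 rose (25%), with a median of -0.08 and with Eef1g, a subunit of the elongation factor complex, lower by 0.52 ± 0.06 (adjusted p = 7.2e-06). Of 51 ribosome biogenesis genes, 10 fell (19.6%) and 12 rose (23.5%), with a median of 0.03. Sbds, which releases Eif6 from the new large subunit, rose by 1.32 ± 0.06 (adjusted p = 9.3e-09), whereas Imp3, of the small-subunit processome, and the nucleolar GTPase Gnl3 fell by 0.80 and 0.68 (SE 0.06 each).

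Of 9 genes of RNA polymerase I and its factors, 3 fell (33.3%, no more than the 36.8% of all genes), namely Polr1b by 0.43, Polr1a by 0.33 and Ubtf by 0.25, and none rose (3 had an unadjusted p under 0.05). Of 5 other proteins of the ribosome or bound to it, 1 fell, Fau (by 0.22 ± 0.05, adjusted p = 0.0038), which encodes a small-subunit protein fused to a ubiquitin-like one. Aminoacyl-tRNA synthetases ran the other way, with 7 of 13 higher (53.8%) and 4 lower (30.8%, median 0.22). Wars, an interferon-induced synthetase, rose 2.60-fold (1.38 ± 0.09, adjusted p = 1.2e-07). Of 11 genes of mTOR and S6 kinase signalling, 8 fell (72.7%) and 1 rose (9.09%, median -0.24). Among them Sesn1, an inhibitor of mTOR complex 1, fell 5.20-fold (adjusted p = 7.2e-11) and Pdcd4, an inhibitor of the helicase Eif4a, fell 2.24-fold (adjusted p = 6.7e-08), while Rictor, of mTOR complex 2, rose by 0.83 ± 0.07.

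**Figure D4:**
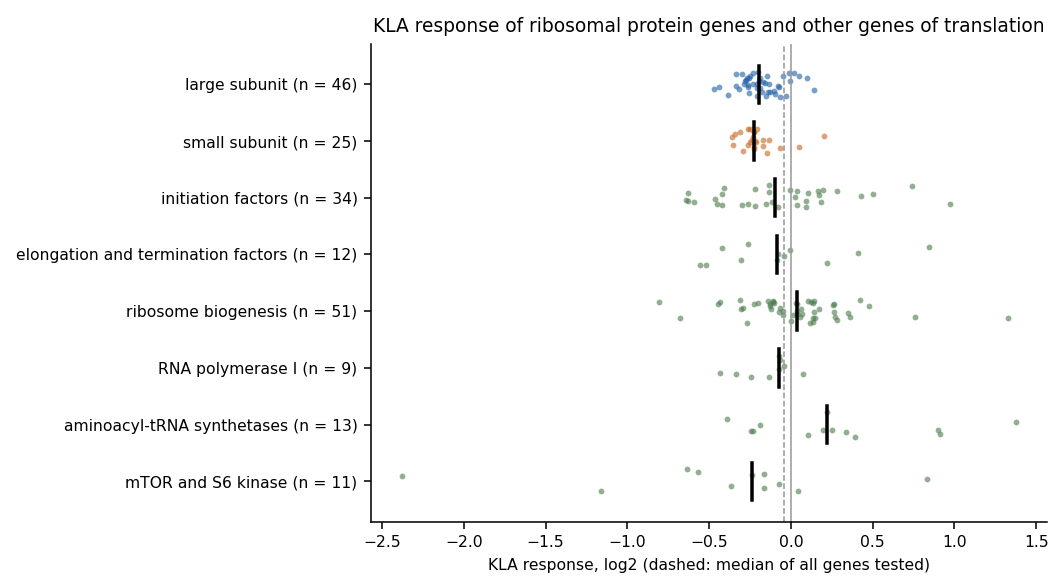
The KLA response on the log2 scale (horizontal axis) of ribosomal protein genes of the large and small subunits and of 6 other lists of translation genes (1 point per gene tested, black bar at the median, dashed line at the median of all genes of -0.04). The ribosomal protein genes lie between -0.47 and 0.20, and the mTOR and S6 kinase list spans from -2.38 to 0.83.

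With the siRNA against MLL, 1 of the 72 ribosomal protein mRNAs was called, against 6.93% of all genes. None was higher and 1 was lower, against 4.25% and 2.67% of all genes (limma, additive fit). The median was -0.04 beside 0.00 for all genes, and 8 members (11.1%) had an unadjusted p under 0.05, beside 22.3% of all genes. The 1 call was the dim Rpl3l, which read 161.5, 159 and 161 in the siMLL untreated arrays (mean 161 ± 1.24 SD, n = 3) and 221 in siCtrl untreated cells, and 149.7 and 175 after KLA. It was lower in every siMLL array than in the siCtrl array of the same KLA state (-0.44 ± 0.08, adjusted p = 0.0074). The call rested on the siCtrl untreated array, without which it gave -0.28 (adjusted p = 0.15) and no member was called. The next by p-value was Rpl36, which read 2939.6 to 3332 in siMLL and 3615 in siCtrl untreated cells and 2692 and 3344 after KLA (-0.27 ± 0.08, adjusted p = 0.065). Of 8 mesothelial and fibroblast genes tested, 2 were lower on the siMLL arrays (25%, against 2.67% of all genes), Upk3b by 0.43 ± 0.08 and Wt1 by 0.35 ± 0.07. Of 7 macrophage genes tested, 1 was higher, Marco by 0.29 ± 0.06 (limma, adjusted p = 0.021). The part of these marker genes in the members' values was not tested.

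With the siRNA against GABP 8 of the 72 members were called, in both directions, a share near the 11.3% of all genes. All genes, too, were called more often than with siMLL (6.93%). Of the 72, 7 were lower (9.72%, against 5.47% of all genes) and 1 was higher (1.39%, against 5.81%). The median was -0.11 beside -0.01 for all genes, and 22 (30.6%) had an unadjusted p under 0.05, beside 26.6% of all genes. These calls depended on single arrays. In place of 8 there were 2 without siMLL untreated replicate 1, 13 without replicate 2 and 1 without replicate 3. There were 2 without siCtrl untreated, 2 without siCtrl KLA, 5 without siMLL KLA, 10 without siGABP untreated and 1 without siGABP KLA. Without the siGABP KLA array the median of the 72 was -0.05, and without the siGABP untreated array it was -0.15. The dimmer members stood lower than the bright ones, with a median of -0.30 over the 12 up to an intensity of 1000, 4 of them lower (33.3%), beside -0.01 and 5.19% for all genes of that range. Over the 60 brighter ones the median was -0.09, with 3 lower (5%) and 1 higher, beside -0.02 and 6.66% lower for all bright genes.

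**Figure D5:**
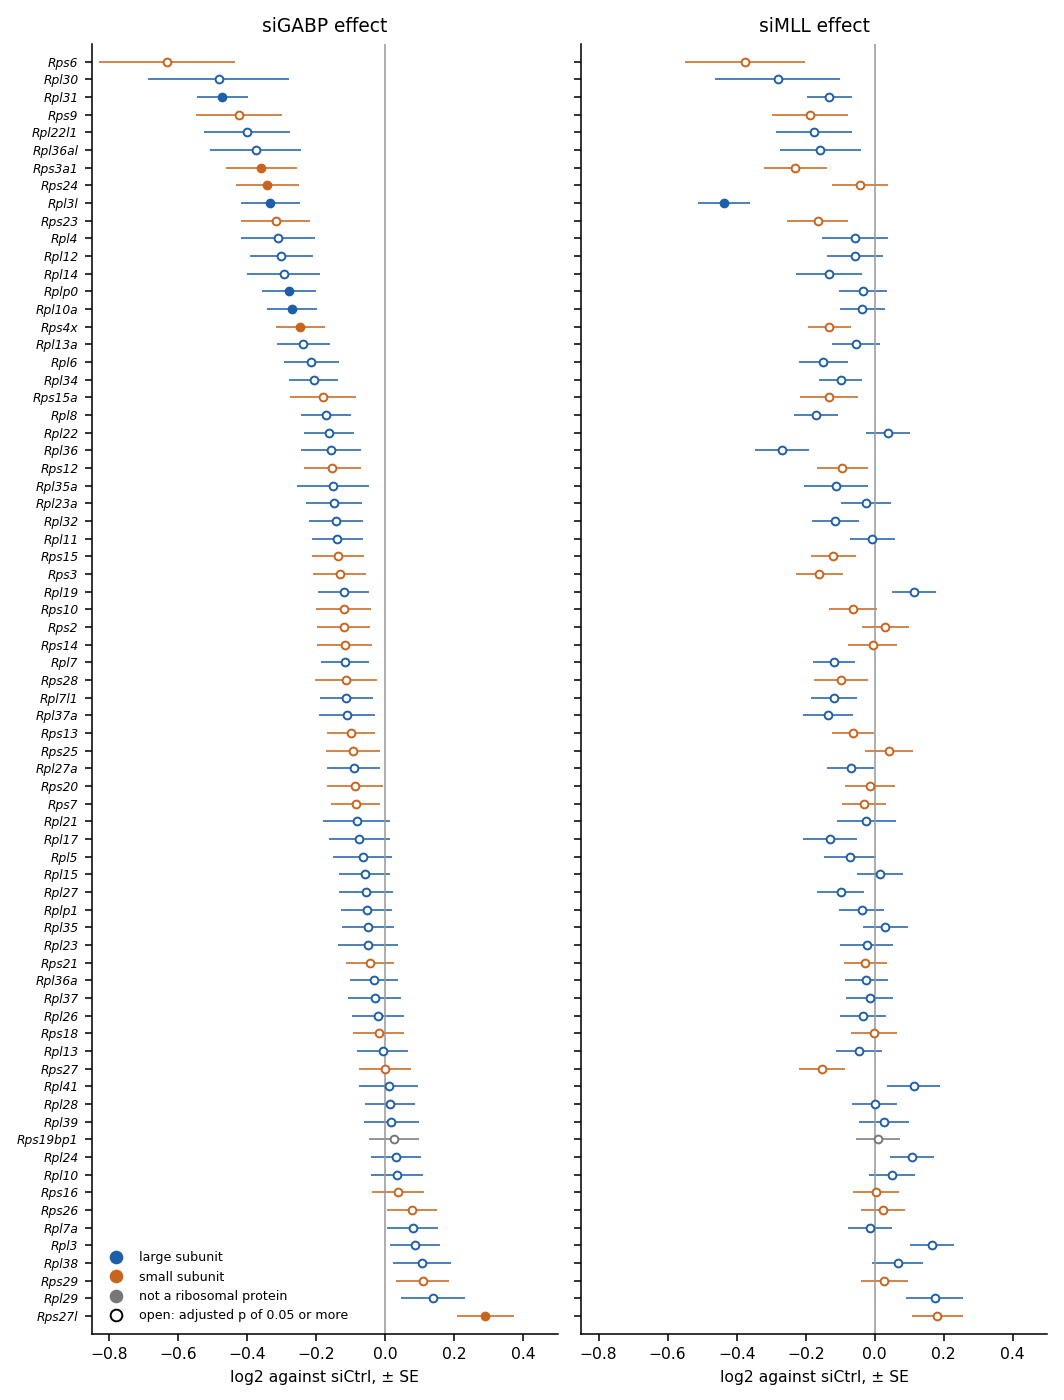
The siGABP effect (left) and the siMLL effect (right) of each of the 72 tested genes on the log2 scale against siCtrl, with SE as bars, in the order of the siGABP effect. Filled points passed the test (8 for siGABP and 1 for siMLL), and both effects use the same 2 siCtrl arrays.

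Rpl31, a protein at the exit of the peptide tunnel, was the member with the smallest p-value. It read 893 in siCtrl untreated and 682 in siGABP untreated cells, 864 in siCtrl KLA and 605 in siGABP KLA, and 842, 819.6, 871 and 763 in the siMLL arrays. Both siGABP arrays were below the other 6 (-0.47 ± 0.07, 1.39-fold, adjusted p = 0.0032). Its siGABP effect passed the test under every alternative run, with adjusted p from 0.0016 to 0.048, and it was also the 1 member called lower in siGABP than in siMLL cells (-0.34 ± 0.07, adjusted p = 0.014), a comparison that does not compare with the siCtrl arrays. That call was lost without siMLL KLA, without siGABP untreated or without siGABP KLA, when no member was called. In it 5.29% of all genes were called (2.92% lower and 2.37% higher), the members' median was -0.05 and that of all genes -0.02.

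The other genes lower on the siGABP arrays were closer to the threshold. Rps24 read 301 in siCtrl untreated and 254 in siGABP untreated cells, and 355 and 276 after KLA (-0.34 ± 0.09, adjusted p = 0.037). Rps3a1, also of the small subunit, read 8174 and 7270.4 untreated and 7554 and 5169.8 after KLA (-0.36 ± 0.10, adjusted p = 0.047), with most of the difference in the KLA pair. Rplp0 read 402 and 352 untreated and 446 and 357 after KLA (-0.28 ± 0.08, adjusted p = 0.042), and its second probe gave -0.55 (adjusted p = 0.030 over all probes). In these 3 genes each siGABP array was below the siCtrl array of the same KLA state. Rpl10a (-0.27 ± 0.07, adjusted p = 0.039), the small-subunit gene Rps4x (-0.25 ± 0.07, 0.046) and the dim Rpl3l (-0.33 ± 0.09, 0.032) completed the 7. For Rpl3l the 2 siRNA effects, -0.44 and -0.33, share the siCtrl arrays, of which the untreated one was the highest of the 8.

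Rps27l was the 1 member higher on the siGABP arrays, at 5979 against 4996 in untreated and 4712 against 3783 in KLA cells (0.29 ± 0.08, 1.22-fold, adjusted p = 0.047). Its siMLL arrays were also above siCtrl, by 0.18 ± 0.07 (adjusted p = 0.17). Its call was lost under 9 of 15 alternatives. Rps6 gave the largest difference without a call, -0.63 ± 0.20 (adjusted p = 0.062), and its siGABP KLA array, at 1324, was the lowest of the 8. Upk3b and Wt1, 2 of the 8 mesothelial and fibroblast genes tested, were also lower on the siGABP arrays (by 0.49 and 0.42, SE 0.08 each). This was 25%, against 5.47% of all genes. Cd22, the 1 B cell gene tested, was higher by 0.34 ± 0.08. The summed mesothelial and fibroblast intensity was 5033 to 6099.9 untreated and 4802 to 5297 after KLA. Their part in the siGABP values was not tested.

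Among the 58 tested members with a promoter, the 22 with CCGGAAG had a median siGABP effect of -0.07 (2 lower, 1 higher) and the 36 without it -0.14 (5 lower), although Rps6 and Rpl31, furthest from siCtrl of these 58, both have it. Rpl31, Rps3a1 and Rps27l have the word, and Rps24, Rpl10a, Rplp0, Rps4x and Rpl3l do not, in the 300 bases read. Rps7, shown above with the word 14 bases before its start, read 16155 in siCtrl and 16060 in siGABP untreated cells. After KLA it read 15526 and 13869, and its siGABP effect over both states was -0.09 ± 0.07 (limma, adjusted p = 0.49). For KLA the medians were -0.18 with the word and -0.21 without it. The shorter word CGGAAG gave siGABP medians of -0.09 over the 41 members with it (2 lower, 1 higher) and -0.25 over the 17 without it (5 lower). Whether members with and without either word differed was not tested.

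No member's response to KLA differed by siRNA in a test of that difference. With a mean per group, whose spread comes from the 3 siMLL untreated arrays alone, 0 of 72 members were called for siMLL and 0 for siGABP, as was 0.0114% of all genes in each (limma). At an unadjusted p under 0.05 there were 0 and 4 members (0% and 5.56%), fewer than the 7.27% and 8.51% of all genes. The 4 were Rps9, Rpl35a, Rps23 and Rps15a, and in each the siGABP KLA array was the lowest of the 8. Rps9 read 11057 and 10618 in siCtrl cells, untreated and after KLA, and 10127 and 6467 in siGABP cells, so its response was -0.06 with siCtrl and -0.65 with siGABP (difference -0.59 ± 0.18, adjusted p = 0.49). Its other 2 probes gave siGABP effects of -0.03 and -0.13 beside -0.42 for the brightest. Rpl35a, at -0.17, -0.49 and -0.63 with siCtrl, siMLL and siGABP, gave differences of -0.32 ± 0.14 for siMLL and -0.46 ± 0.16 for siGABP (adjusted p = 0.68 and 0.53). With 1 array in 5 of the 6 groups, these differences did not exceed what the test allows for array-to-array spread.

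The 3 siMLL untreated arrays show what that spread was. The median SD of a member over them was 0.05 on the log2 scale, beside 0.07 for all genes. Replicate 2 gave the lowest of the 3 values in 43 of the 72 members (59.7%), against 35.4% of all genes, while replicates 1 and 3 did so in 16 and 13 (36.4% and 28.2% of all genes). In Rpl30, whose protein can bind its own transcript in yeast, it read 856 beside 1324 and 1373 (SD 0.39 on the log2 scale), and in Rps6 1564 beside 2394 and 2161 (SD 0.33). These 2 genes had the widest spread of the 72, and neither was called in any comparison. In both, the gap between 2 arrays of this 1 group was wider than the KLA response of any member.

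13 members had more than 1 probe, and no member had probes called in opposite directions. The probes did not always move alike. Rpl23 gave -0.08 (adjusted p = 0.36 over all probes) with its brightest probe and -0.36 (0.00014) with its second. Rpl27a gave -0.29 and -0.27 after KLA with its 2 brightest probes, whereas its siMLL effect was -0.07 with the first and -0.40 (adjusted p = 0.011) with the second. Rpl38 had a siGABP effect of 0.11 with its first probe and 0.37 (adjusted p = 0.015) with its second. Second probes were called lower for siGABP in Rpl13a (-0.31, limma, adjusted p = 0.028), Rpl23 (-0.30, 0.028) and Rpl27a (-0.31, 0.037). Their brightest probes gave -0.24, -0.05 and -0.09 without a call. Ribosomal protein genes have many near-identical processed copies in the genome, and a probe that matches a copy would read both.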

How the data were processed

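The deposited intensity values are linear bead-array signals that the authors exported from BeadStudio 1.5.1.3 (per the submitters' processing notes) after hybridizing labelled RNA to Illumina arrays. Their 23978 values were identical between arrays once sorted, as quantile normalization leaves them, so a shift shared by most probes cannot appear. A second table has 16 columns whose names match no label and was not used.

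Values were corrected with limma 3.58.1 in R 4.3.3 (normexp, offset 50), quantile normalized and put on the log2 scale. The folds of dimmer probes depend on the offset. The KLA response of Rpl22 was -0.47 in this way, -0.503 at an offset of 16 and -0.443 on log2 of the deposited intensity. Probes above the median mean (log2 6.73, 11989 probes) were kept, and a gene took its brightest probe. 20917 probes had 1 gene, 1 had several and 3060 had none.

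KLA responses and siRNA effects came from an additive model, which assumes 1 KLA response for all siRNAs (residual degrees of freedom: 4). Their interaction came from a mean per group (residual degrees of freedom: 2). Adjusted p-values are Benjamini-Hochberg over 8793 genes, called below 0.05. Scripts were tested on simulated data.

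Named genes were the 8 largest falls, all rises and the 4 members nearest 0 after KLA, the 5 leading siRNA effects each, the 3 leading interactions, members of fixed role sets, and up to 3 genes per pathway list. Rpl30, Rps9's probes and the split at 1000 and 10000 were chosen after their values were seen. Members and lists were chosen with earlier results of these data known.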

Additional observations from a re-analysis of the deposited data

How the results depend on the processing

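The KLA count of 48 ran from 44 (no filter) to 52 (variance trend) over the processing alternatives and from 38 to 51 when 1 array was left out. Its median of -0.21 ran from -0.224 to -0.176 without 1 array, the latter without siGABP untreated or siGABP KLA. It was -0.22 with the stricter filter, under which the median of all genes was -0.17 in place of -0.04. For siMLL 1 gene was called, 2 on log2 of the deposited intensity or with a variance trend, and 0 to 1 without 1 array. Its median ran from -0.076 to -0.037. For siGABP 8 were called, with 2 at an offset of 16, 1 with no filter, 14 with a variance trend, and 1 to 13 without 1 array, and the median ran from -0.146 to -0.054. Of 105 alternative values of the 7 named siGABP calls, 57 passed the test and 48 did not. For siGABP minus siMLL, a comparison added after seeing the data, 1 was called, with 4 on log2 of the deposited intensity, 6 with the stricter filter, 3 with a variance trend and 0 to 3 without 1 array, and the median ran from -0.094 to -0.019. The cause was not tested. No member was called for an interaction under any alternative that could be fitted.

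The KLA responses that changed sign belonged to genes without a call. Rpl7l1 was 0.002 with a mean per group and -0.054 to 0.03 without 1 array. Rpl24 was -0.042 to 0.006. Rpl36al was -0.01 with a mean per group and -0.106 to 0.134. Rpl38 was 0.009 as the mean of its probes, 0.048 with its second probe and -0.1 to 0.002. Rplp0 was -0.051 with its second probe. Rps6 was -0.349 to 0.021.

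No paired analysis was possible because only the siMLL untreated group carries replicate numbers. An interaction has no value without siCtrl untreated, siCtrl KLA or the siRNA's own single arrays. Dim probes (Rps15a, Rpl3l, Rpl14, Rpl36al and Rpl22l1, mean intensity 146 to 242) lie close to the array's median intensity of 139.5, which limits what a fold there can show. The brightest probes of Rps24 and Rplp0 (mean intensity 303 and 397) were also dim beside those of most members.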
